A study of Mus musculus with 36 samples.

Results

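Transcripts of 7 CXC chemokine genes, Cxcl1, Cxcl2, Cxcl5, Cxcl10, Cxcl12, Cxcl14 and Cxcl16, were followed in cultured mouse pancreatic fibroblasts. They were taken by gene symbol from a table of 39017 genes, where each of the 7 symbols marked 1 row. Of the 7, 5 were abundant enough to be tested among 14439 genes, and Cxcl2 and Cxcl14 were not. The fibroblasts, of strain C57BL/6, had either been grown alone (mono-culture) or been cultured for 48 hours in direct contact with GFP-expressing tumour cells. The tumour cells were clone E, H, K, M, N, T or V, or a line named KPC1 that the labels do not explain, so there were 8 co-cultures beside the mono-culture. Each of these 9 groups had 4 libraries, 36 in all. After co-culture the tumour cells were separated from the fibroblasts by flow sorting on GFP, and polyadenylated RNA of the isolated fibroblasts was sequenced in bulk. The labels do not say whether the mono-culture was sorted too, nor whether the libraries of a group came from separate cultures, so the p-values measure the spread between these libraries, which may be technical. Each clone stands for 1 tumour line.

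CXC chemokines are small secreted proteins that guide leukocytes by binding receptors on their surface. Cxcl1, Cxcl2 and Cxcl5 encode ligands of Cxcr2, the receptor through which neutrophils are drawn into tissue, and are classical targets of the transcription factor NF-kappaB. Cxcl10 encodes an interferon-inducible ligand of Cxcr3, found on activated T cells. Cxcl12 encodes the ligand of Cxcr4 and Ackr3, is a typical product of resting stromal cells, and in pancreatic tumours is known as a fibroblast product that keeps T cells away from cancer cells. Cxcl16 encodes a chemokine made as a membrane protein, which is shed by proteases and bound by Cxcr6.

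The genes lie in few places of the genome (build mm10). On chromosome 5, Cxcl5 (chr5:90759360-90761624), Cxcl1 (chr5:90891241-90893115) and Cxcl2 (chr5:90903871-90905938) stand on the forward strand in 1 cluster with Ppbp, Pf4, Cxcl3 and Cxcl15. Further along, Cxcl10 (chr5:92346638-92348889) stands on the reverse strand between Cxcl9 and Cxcl11. Cxcl12 (chr6:117168535-117181367, forward), Cxcl14 (chr13:56288643-56296551, reverse) and Cxcl16 (chr11:70453983-70459984, reverse) stand apart. All 7 are protein-coding, and the transcripts with the most exons have 4 for each gene other than Cxcl16, which has 6. Cxcl10 overlaps Art3 and Cxcl16 overlaps Zmynd15, both on the opposite strand. The kit marked strand, and how strand was used in counting is not given in the sources used here. Art3 held 0 to 19 counts per library and Zmynd15 held 2 to 32.

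The stretches just before the start sites of 4 members are shown because they set a pair that peaked in the same KPC1 library, Cxcl1 and Cxcl2, beside Cxcl10 and Cxcl12, called in 7 and 8 of the 8 co-cultures. The window runs from 250 to 51 bases before the RefSeq start site (GRCm38.p6), 5′ to 3′ on the strand of the gene. It covers chr5:90890995-90891194 on the forward strand for Cxcl1 and chr5:90903649-90903848, also forward, for Cxcl2. For Cxcl10 it covers chr5:92348940-92349139 on the reverse strand, and for Cxcl12 chr6:117168285-117168484 on the forward strand. Capitals mark matches, on either strand, to the core of the NF-kappaB site, GGANTTTCC, and to a core of the interferon response element, TTCNNTTTC.
Cxcl1: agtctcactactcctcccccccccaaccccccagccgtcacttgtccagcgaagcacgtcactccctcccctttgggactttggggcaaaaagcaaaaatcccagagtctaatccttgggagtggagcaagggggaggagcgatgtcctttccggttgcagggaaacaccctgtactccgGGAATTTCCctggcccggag
Cxcl2: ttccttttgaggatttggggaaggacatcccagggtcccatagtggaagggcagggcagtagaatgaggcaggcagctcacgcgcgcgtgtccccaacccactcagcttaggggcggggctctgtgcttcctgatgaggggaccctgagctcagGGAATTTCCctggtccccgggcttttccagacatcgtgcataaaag
Cxcl10: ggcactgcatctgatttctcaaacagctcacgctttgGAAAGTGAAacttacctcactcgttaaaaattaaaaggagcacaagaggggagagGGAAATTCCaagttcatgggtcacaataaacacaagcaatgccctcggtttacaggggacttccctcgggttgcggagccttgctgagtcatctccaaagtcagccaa
Cxcl12: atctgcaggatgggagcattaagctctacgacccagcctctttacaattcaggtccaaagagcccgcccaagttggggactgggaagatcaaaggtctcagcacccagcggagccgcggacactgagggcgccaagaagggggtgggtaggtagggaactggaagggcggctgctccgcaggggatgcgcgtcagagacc
Cxcl1 and Cxcl2 carry the same 9 letters, GGAATTTCC, at 70 to 62 and at 96 to 88 bases before the start. Cxcl10 carries an NF-kappaB core read on the opposite strand, GGAAATTCC, at 158 to 150 bases, and an interferon core, also opposite, GAAAGTGAA, at 213 to 205 bases. Neither pattern occurs in the Cxcl12 window. Promoter entries, from 250 bases before to 50 after the start, were matched for 5 of the 7 members. The NF-kappaB core was found in 3 of these 5 and in 1.25% of 32851 mouse promoters. The interferon core was found in 2 of 5, Cxcl10 and Cxcl14, and in 8.56% of promoters. The letters TATAAA were found in 0 of 5 and in 13.6%. A match is a run of letters and not a shown binding site, and no match says only that these letters are not in this window.

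The libraries held 12532122 to 21985538 counts each, and levels are given as CPM (counts scaled to a common library total) after TMM scaling. Summed over 9 fibroblast markers, every library reached 10884 to 32040 CPM. The leukocyte markers Ptprc and Itgam and the endothelial markers Cdh5 and Emcn never exceeded 3 counts in a library. Other markers of the same lists exceeded 3 counts in all 36 libraries. These were Cd68 (0.963 to 15.2 CPM), Cd14 (3.51 to 20.7 CPM), Csf1r (0.220 to 1.93 CPM) and Kdr (0.552 to 5.49 CPM). The lists of 7 leukocyte and 5 endothelial markers summed to 5.63 to 33.4 and 1.12 to 6.39 CPM. A sum over 8 epithelial markers was 0.989 to 1.71 CPM in the mono-culture and 18.3 to 797 CPM in the 32 co-culture libraries. Krt18, Krt8 and Krt19 made up most of it. Cdh1 averaged 0.258 CPM in the mono-culture and 13.2 CPM in the co-cultures, and Krt7 averaged 0.372 and 0.514 CPM. Epcam and Cldn7 went the other way, at 0.177 and 0.0376 CPM and at 0.281 and 0.0782 CPM. Cldn4 was at or near 0 throughout. The summed signal, found although the tumour cells had been sorted away by GFP, was above the mono-culture in every co-culture library. It thus moves with each difference from mono-culture. Its part in those differences was not tested. In bulk RNA, fewer cells of a type and less RNA per cell cannot be told apart.

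Per length of transcript (the deposited RPKM), Cxcl12 was by far the highest of the 7 in fibroblasts grown alone, at 274.6 ± 34.7 RPKM (SD, n = 4), which ranked 174 of 37746 genes. Cxcl10 followed at 17.8 ± 4.89, Cxcl1 at 5.57 ± 2.49 and Cxcl16 at 2.30 ± 0.211 RPKM. Cxcl5 averaged 0.00926 RPKM from a single count, and Cxcl2 and Cxcl14 had none. With KPC1, the mean RPKM was 8.84 ± 2.09 for Cxcl12, below 83.4 ± 141 for Cxcl1 and 35.9 ± 14.2 for Cxcl10 (SD, n = 4). The Cxcl1 mean rests on replicate 1, whereas Cxcl10 lay above Cxcl12 in all 4 KPC1 libraries on this scale.

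**Figure D1:**
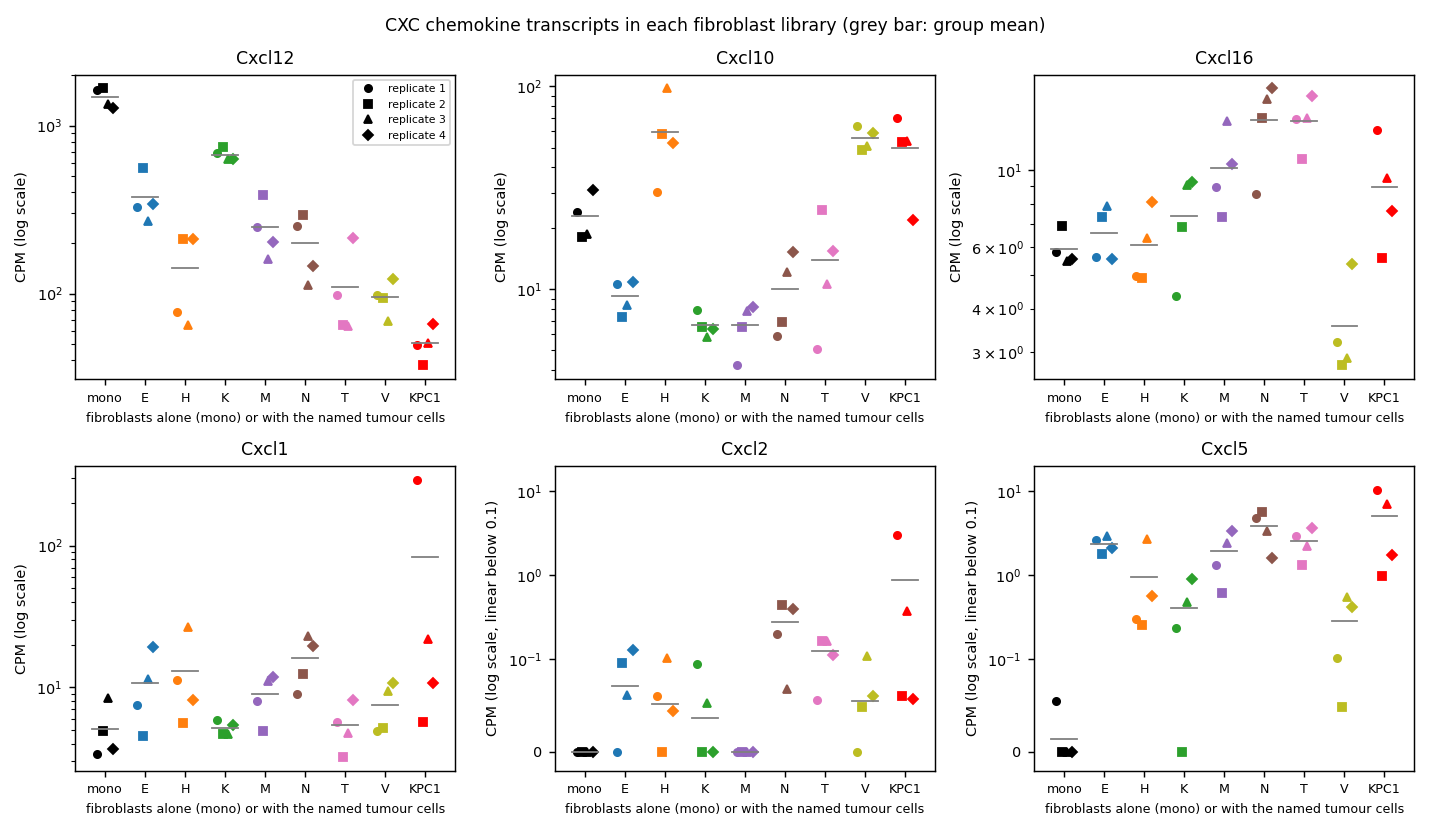
CPM (y axis, log scale, linear below 0.1 for Cxcl2 and Cxcl5) of 6 CXC chemokine genes in each of the 36 libraries, by group (x axis). Marker shapes give the replicate and grey bars the mean of 4 libraries. Cxcl12 lies below the mono-culture in all 32 co-culture libraries, Cxcl10 lies on both sides of it, and 1 KPC1 library stands far above the rest for Cxcl1 and Cxcl2.

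Against the mono-culture, edgeR's quasi-likelihood test over all 14439 genes called 3 or 4 of the 5 tested members in each co-culture at a Benjamini-Hochberg adjusted p under 0.05. In the clone E co-culture it called 3 (1 higher, 2 lower), where 32% of all genes were called. For H it called 3 (2 higher, 1 lower) against 54.2%, for K 3 (1 higher, 2 lower) against 19.1%, and for M 4 (2 and 2) against 23%. For N it called 4 (2 and 2) against 39%, for T 3 (2 higher, 1 lower) against 49.8%, for V 4 (2 and 2) against 58.3%, and for KPC1 4 (3 higher, 1 lower) against 59%. Because so many genes changed, these counts by themselves say little about the chemokines, and the direction and size for each gene carry the description. All 8 comparisons share the same 4 mono-culture libraries. The median log2 fold change of the 5 members ran from 0.05 with clone K to 1.37 with clone H, and that of all genes from -0.01 to 0.01. For clone K, leaving out any 1 of the 8 libraries left 1 or 2 members called in place of 3.

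Cxcl12, the resting stromal chemokine, fell in every co-culture. Its levels in the mono-culture were 1639, 1667, 1340.4 and 1279 CPM. With clone K they were 683, 743, 637 and 629 CPM, and with clone E 329, 559.9, 271 and 343 CPM. All 32 co-culture libraries lay below all 4 mono-culture libraries, as they did for 4.17% of the genes tested.

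The other clones left less. With clone M, Cxcl12 stood at 248, 388, 159.7 and 204 CPM, and with clone N at 252, 292, 112 and 146 CPM. With clone H, replicates 2 and 4, at 212 and 211 CPM, stood well above replicates 1 and 3, at 77.7 and 64.9 CPM, so that group spanned more than 3-fold. With clone T the values were 97.6, 64.7, 63.8 and 214 CPM, and replicate 4 lay apart from the other three. With clone V they were 97.6, 94.4, 69.0 and 123 CPM. With KPC1 they were 49.3, 37.3, 50.6 and 65.8 CPM, the lowest of the 9 groups.

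Cxcl12 was called lower in all 8 co-cultures, as were 3.19% of the genes tested. The fold by which it fell ran from 2.20 with clone K (log2 fold change -1.14, SE 0.37, adjusted p = 0.03) to 29.2 with KPC1 (-4.87, SE 0.43, adjusted p = 3.1e-10). Between these lay clone E at -1.98, clone M at -2.57, clone N at -2.88, clone H at -3.39, clone T at -3.75 and clone V at -3.95 on the log2 scale. The call with clone K was lost when any 1 of 6 libraries was left out (mono-culture replicate 1 or 2, or any clone K replicate, adjusted p 0.053 to 0.075), although the values of the groups do not overlap. Over the 32 co-culture libraries, log2 Cxcl12 and the log2 epithelial sum had a Pearson r of -0.21. Summed fibroblast markers averaged 21948 CPM in the mono-culture and 14794 (KPC1) to 26707 CPM (clone M) in the co-cultures. The part of either in the Cxcl12 level was not tested.

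In order of mean CPM, mono-culture stood first, followed by clones K, E, M, N, H, T and V and then KPC1. Of the 8 steps between neighbours in that order, the step from mono-culture to clone K was called. The others did not pass, including clone K over clone E (log2 difference 0.84, adjusted p = 0.14) and clone V over KPC1 (0.92, adjusted p = 0.11), where the libraries did not overlap. Over wider gaps, 16 of the 28 pairs of co-cultures differed. Pooled over all 14439 genes, 27.5% of such pairs were called.

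**Figure D2:**
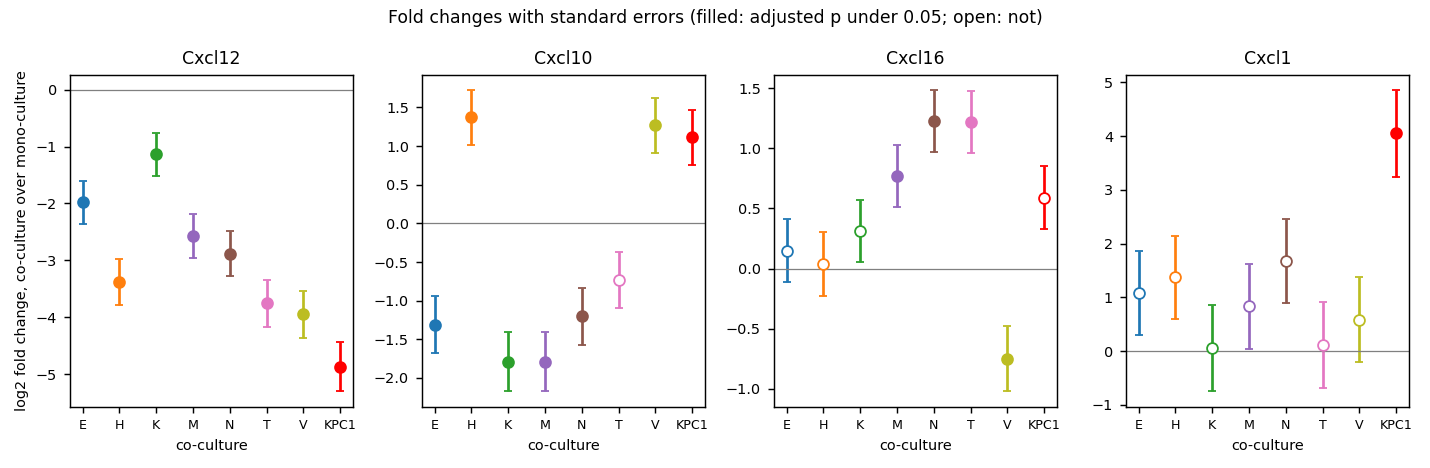
Log2 fold change over mono-culture (y axis) of Cxcl12, Cxcl10, Cxcl16 and Cxcl1 in each of the 8 co-cultures (x axis), with standard errors as bars. Filled points have an adjusted p under 0.05: all 8 for Cxcl12, 7 for Cxcl10, on both sides of 0, 4 for Cxcl16 and 1, KPC1, for Cxcl1.

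Cxcl10, the interferon-inducible attractant of T cells, moved in opposite directions with different tumour cells. The mono-culture held 24.2, 18.1, 18.7 and 30.99 CPM. Fibroblasts with clone H held 30.1, 58.3, 97.8 and 52.5 CPM, those of the clone V co-culture 63.5, 48.6, 50.8 and 59.2 CPM, and those from the KPC1 co-culture 70.3, 53.2, 54.0 and 21.96 CPM. The clone V libraries all lay above the mono-culture, while clone H replicate 1 and KPC1 replicate 4 lay within its range.

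The remaining 5 clones left Cxcl10 below the mono-culture mean. Clone E gave 10.7, 7.34, 8.40 and 10.8 CPM, and clone K 7.92, 6.50, 5.82 and 6.34 CPM. Clone M gave 4.22, 6.50, 7.79 and 8.21 CPM, and clone N 5.88, 6.93, 12.2 and 15.3 CPM. All 16 of these libraries lay below the mono-culture, whereas clone T, at 5.05, 24.6, 10.6 and 15.4 CPM, overlapped it through replicate 2.

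The test called Cxcl10 higher with clone H (log2 fold change 1.37, SE 0.36, adjusted p = 0.0018), clone V (1.27, SE 0.36, adjusted p = 0.0031) and KPC1 (1.11, SE 0.36, adjusted p = 0.0083). It called Cxcl10 lower with clone E (-1.31, adjusted p = 0.0075), K (-1.79, adjusted p = 0.001), M (-1.79, adjusted p = 0.00091) and N (-1.20, adjusted p = 0.011). With clone T the change of -0.73 did not pass (adjusted p = 0.097), and without clone T replicate 2 it was -1.15 (adjusted p = 0.015). Under limma-trend on log2(RPKM + 1) and log2(RPKM + 0.1) the clone T change passed as well (adjusted p = 0.037 and 0.032). Of all genes tested, 5.35% were called higher in at least 1 co-culture and lower in at least 1. Clone H, clone V and KPC1 were set against clones E, K, M, N and T because their own Cxcl10 means lay above the mono-culture. All 15 of these pairs were called, with log2 differences of 1.84 to 3.16, which in part follows from that sorting. Over all genes, 27.5% of pairs of co-cultures were called. The 3 high co-cultures did not pass against each other, with log2 differences of 0.11 (H over V), 0.26 (H over KPC1) and 0.15 (V over KPC1). Of the 10 pairs among the other 5 clones, 2 were called, clone T over clone K and over clone M.

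Cxcl10 was set beside 14 genes of the interferon pathway, of which 13 were tested. In the clone H co-culture 1 of the 13 rose and 2 fell, in that of clone V 1 rose and 2 fell, and in that of KPC1 2 rose and 4 fell. Ifngr1, a subunit of the interferon-gamma receptor, was higher in all 3, by 0.71, 0.59 and 0.70 on the log2 scale (adjusted p = 7.8e-08, 1e-06 and 7.3e-08). The antiviral gene Ifit1 was lower in all 3, with log2 fold changes of -0.90, -1.15 and -1.63 (adjusted p = 0.0075, 0.00084 and 1.5e-05). Neither change was particular to these 3. Ifngr1 was also called higher with clones E, N and T, by 0.58, 0.53 and 0.54. Ifit1 was called lower with the other 5 clones as well, from -1.52 (clone E) to -2.07 (clone T). Of all genes, 27.8% rose and 26.4% fell for H, 29.4% and 28.9% for V, and 30.5% and 28.5% for KPC1. For the other 5 clones, those of the 13 that fell numbered 7 for E (where 15.5% of all genes fell), 8 for K (8.69%), 8 for M (10.8%), 7 for N (19.2%) and 9 for T (24.7%). Those that rose there numbered 2 for E, 1 for K, 1 for M, 4 for N and 2 for T, all of them interferon receptor subunits such as Ifnar1 and Ifngr2. In all 8 co-cultures replicate 1 was the lowest library for 5 of the 13 genes, Irf7, Irf9 and Ifit3 among them, whereas for Cxcl10 this held in 4 of 8. With the replicate number as a block, an alternative chosen after seeing the data, 5 of the 13 fell with clone V in place of 2. The 13 genes had a median log2 fold change of -0.07 (clone H), -0.39 (clone V) and -0.60 (KPC1), and of -1.001 to -1.249 with the other 5 clones, against a median near 0 for all genes. Without KPC1 replicate 1, 2 of the 13 fell with KPC1 in place of 4. The genes whose log2 CPM was most like that of Cxcl10 over the 36 libraries were Ifih1, a sensor of double-stranded RNA (Pearson r = 0.93), the antiviral gene Zc3hav1 (0.93) and Nampt, an enzyme of NAD synthesis (0.93). Libraries of a group share their treatment, so these coefficients describe 9 groups more than 36 independent points.

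**Figure D3:**
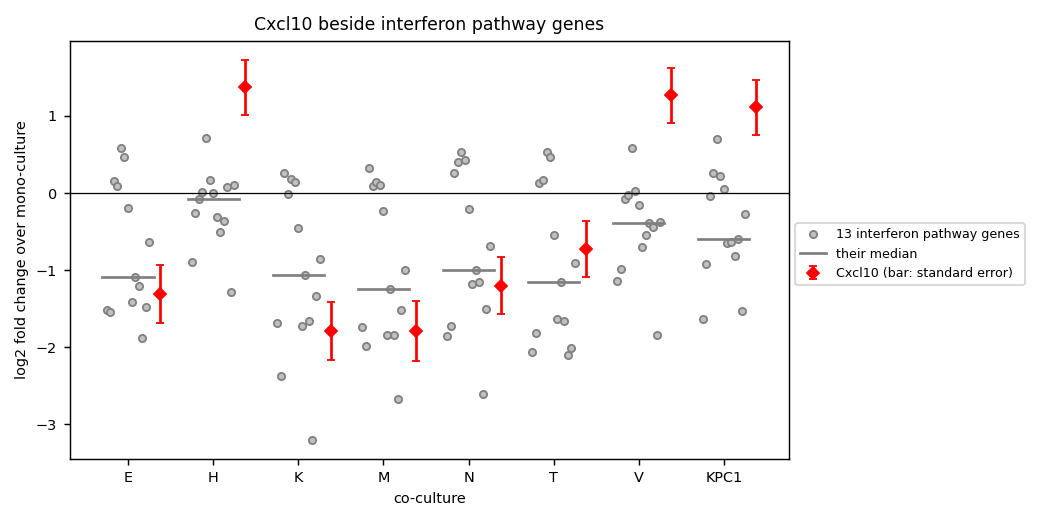
Log2 fold change over mono-culture (y axis) of Cxcl10 (red diamonds, bars are standard errors) and of 13 interferon pathway genes (grey points, grey line their median) in each co-culture (x axis). With clones H and V and KPC1, Cxcl10 stands above 0 while the median of the 13 genes stands at -0.07, -0.39 and -0.60.

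Cxcl16, the membrane-bound ligand of Cxcr6, varied least between groups of the 5 tested members. The mono-culture held 5.83, 6.93, 5.48 and 5.58 CPM. With clone N it stood at 8.56, 14.2, 16.05 and 17.2 CPM, with clone T at 14.1, 10.8, 14.1 and 16.4 CPM, and with clone M at 8.93, 7.35, 13.9 and 10.4 CPM. All 12 of these libraries lay above the mono-culture. With clone V it stood at 3.20, 2.74, 2.89 and 5.38 CPM, all below.

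Cxcl16 was called higher with clone N (log2 fold change 1.23, SE 0.26, adjusted p = 0.00033), clone T (1.22, SE 0.26, adjusted p = 0.00025) and clone M (0.77, SE 0.26, adjusted p = 0.03), and lower with clone V (-0.75, SE 0.27, adjusted p = 0.018). With clones E, H and K, where it ranged from 4.34 to 9.27 CPM, it was not called, and neither was it with KPC1, at 13.1, 5.61, 9.49 and 7.64 CPM (0.59, adjusted p = 0.052). The calls with clones M and V were lost without single libraries: clone M without mono-culture replicate 1, 3 or 4 or clone M replicate 3 or 4 (adjusted p 0.06 to 0.16), clone V without mono-culture replicate 2 or clone V replicate 2 or 3 (adjusted p 0.056 to 0.065). KPC1 passed without mono-culture replicate 2 or KPC1 replicate 2 or 4 (adjusted p 0.015 to 0.047), under DESeq2 (0.048) and when only the 8 libraries of that comparison were fitted (0.049). The clone M call was also lost under limma-trend on log2(RPKM + 0.1) (adjusted p = 0.054). The epithelial sum moved with Cxcl16. It averaged 534 CPM with clone N, 496 CPM with clone T and 100.4 CPM with clone V, and over the 32 co-culture libraries the 2 log2 levels had a Pearson r of 0.74. The mono-culture libraries, with an epithelial sum of at most 1.71 CPM, held 5.48 to 6.93 CPM of Cxcl16, and the clone V libraries 2.74 to 5.38 CPM. The part of the epithelial sum in the Cxcl16 levels was not tested. The genes most like Cxcl16 over the 36 libraries were Anxa11 (r = 0.89), Lmbr1 (0.89) and Il3ra (0.86).

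Proteases that trim or shed these chemokines were followed as a list of 6, of which 5 were tested. In the mean of the 7 clones, 0 rose and 4 fell, where 24.3% of all genes rose and 24.9% fell. The median log2 fold change of the 5 was -0.93. Mmp2 and Mmp14, matrix proteases that can cleave the Cxcl12 protein, fell by 0.93 and 0.97 on the log2 scale (edgeR adjusted p = 2.2e-08 and 3.7e-10), while Mmp9 fell by 2.17 (adjusted p = 0.00013). Adam17, a sheddase of Cxcl16, had a log2 fold change of 0.08 (adjusted p = 0.4). In single co-cultures 2 to 4 of the 5 fell and 0 rose. Of all genes, 8.69% (clone K) to 28.9% (clone V) fell there and 10.4% (clone K) to 30.5% (KPC1) rose.

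Cxcl5, a neutrophil attractant, was nearly absent from fibroblasts grown alone and was detected in 31 of 32 co-culture libraries, always at a low level. The 4 mono-culture libraries held 1, 0, 0 and 0 counts. With KPC1 it stood at 10.3, 0.965, 6.96 and 1.71 CPM, with clone N at 4.80, 5.63, 3.36 and 1.59 CPM, and with clone T at 2.92, 1.32, 2.19 and 3.65 CPM. With clone E it stood at 2.63, 1.77, 2.88 and 2.11 CPM, and with clone M at 1.30, 0.607, 2.41 and 3.36 CPM.

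The 3 lowest co-cultures were clones H, K and V. Clone H held 0.299, 0.253, 2.68 and 0.567 CPM, with replicate 3 far above the others. Clone K held 0.236, 0, 0.476 and 0.900 CPM and clone V 0.102, 0.0481, 0.545 and 0.419 CPM, and the lowest library of each overlapped the mono-culture.

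Against the single mono-culture count, the depth-adjusted ratio was 364 with KPC1 (95% exact counting interval 65.0 to 14437), 279.6 with clone N (49.8 to 11084) and 18.9 with clone V (3.02 to 784). These intervals cover counting error only. Cxcl5 was called higher in all 8 co-cultures, as were 3.42% of the genes tested. With a single count in the mono-culture, it passed the abundance filter through the co-cultures, so a lower call was not possible. The shared direction of the 8 calls therefore carries no further information. The adjusted p ran from 2e-06 with KPC1 to 0.04 with clone K and 0.049 with clone V. The calls with clones K and V were each lost when any mono-culture library, or replicate 3 or 4 of the clone, was left out (adjusted p 0.062 to 0.14 and 0.055 to 0.14), and both were lost with no filter on low counts (adjusted p = 0.086 and 0.096). Without scaling beyond library size the clone V call was lost as well (adjusted p = 0.057). Under limma-trend on log2(RPKM + 1) the calls with clones H, K and V were lost (adjusted p = 0.18, 0.61 and 0.65), and on log2(RPKM + 0.1) those with K and V (0.13 and 0.13).

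Cxcl5 moved with the epithelial sum. Krt19, an epithelial keratin, was among the 3 genes most like it over the 36 libraries (Pearson r = 0.93), beside Apobec3 (0.93), an antiviral deaminase, and Tnfrsf21 (0.93), a death receptor. Over the 32 co-culture libraries, log2 Cxcl5 and the log2 epithelial sum had a Pearson r of 0.89. Within clones E, H and K and KPC1, 4 of the 8 co-cultures, the libraries ranked in the same order for both. The KPC1 libraries had epithelial sums of 587, 182, 357 and 293 CPM, and clone K replicate 2, the co-culture library without Cxcl5, had the lowest epithelial sum of all co-cultures at 18.3 CPM. The part of epithelial RNA in the Cxcl5 level was not tested.

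**Figure D4:**
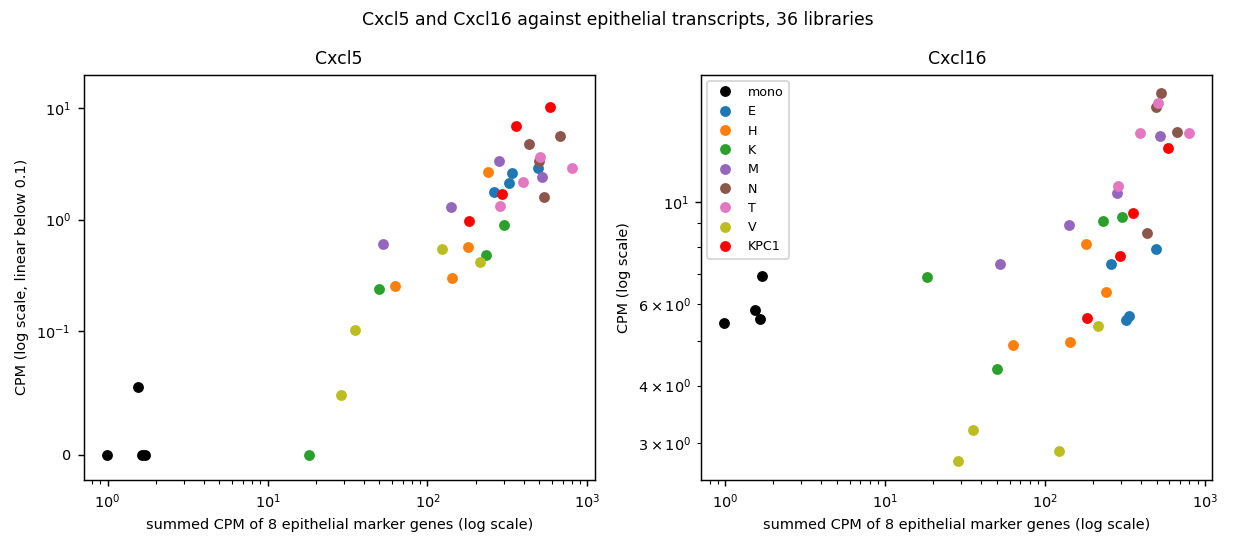
CPM of Cxcl5 (left, y axis, log scale, linear below 0.1) and Cxcl16 (right, y axis, log scale) against the summed CPM of 8 epithelial markers (x axis, log scale) in each of the 36 libraries, coloured by group. Cxcl5 rises with the epithelial sum from the mono-culture, at most 1.71 CPM of markers, to the co-cultures at up to 797 CPM. For Cxcl16, the mono-culture lies at 5.48 to 6.93 CPM and clone V at 2.74 to 5.38 CPM.

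Cxcl1, another Cxcr2 ligand, was not called with any clone in the fit of all 36 libraries and was very high in a single KPC1 library. The mono-culture held 3.41, 4.90, 8.37 and 3.70 CPM, and the KPC1 co-culture 292, 5.67, 21.9 and 10.8 CPM. Over the 28 libraries with clones, it ranged from 3.24 CPM (clone T replicate 2) to 26.7 CPM (clone H replicate 3). Clone N was the highest of the clones, at 9.05, 12.4, 23.1 and 19.7 CPM, all above the mono-culture.

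In the test over all genes, KPC1 was the only 1 of the 8 co-cultures with a call for Cxcl1 (log2 fold change 4.05, SE 0.82, adjusted p = 1e-04). Leaving out KPC1 replicate 1 gave 1.34 (adjusted p = 0.025), so the call held at a smaller size. With clone N the change was 1.68 (adjusted p = 0.088), and it passed when only the 8 libraries of that comparison were fitted (1.69, adjusted p = 0.0044). The other clones lay between 0.05 (clone K) and 1.37 (clone H, adjusted p = 0.14). Among the 7 clones no difference in Cxcl1 passed the joint test (adjusted p = 0.33). All groups share 1 estimate of the spread of Cxcl1, which includes KPC1 replicate 1, and the SE with clone N was 0.78. The absence of calls with the clones may thus depend on that library. Changes with the clones in a fit without it are not given here.

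Cxcl2, the close relative of Cxcl1, was barely detected. The mono-culture and clone M held 0 counts in all 8 libraries, and clones E, H, K and V held 0 to 2 counts in each library. With clone N the libraries held 4, 8, 1 and 7 counts and with clone T 1, 3, 3 and 2. With KPC1 they held 57, 1, 6 and 1. Against the limit that a count of 0 allows over the mono-culture (3 counts over the group), this was at least 6.68-fold higher with clone N, 2.96-fold with clone T and 22.3-fold with KPC1, of which replicate 1 supplied most of the counts. With no filter on low counts (24754 genes), edgeR called Cxcl2 higher with clone N (adjusted p = 0.011) and KPC1 (0.00013, and 0.0074 without replicate 1). Cxcl2 shares 100 stretches of 76 bases, the read length, with the transcripts of Cxcl3, so counts of the 2 genes may be split uncertainly. Cxcl14, a chemokine of many resting epithelia and stromal tissues, had 2 counts in all 36 libraries together, out of 654401004.

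KPC1 replicate 1 also stood apart for genes of the NF-kappaB pathway. Nfkbia, which encodes the inhibitor IkappaB-alpha, reached 168 CPM there, against 63.6 CPM in the next highest of the 36 libraries. Nfkbiz, a coactivator of inflammatory genes, reached 112.6 CPM against 46.0, and Tnfaip3, a feedback inhibitor, 91.3 CPM against 39.1. This library was the highest of 36 for 9 of the 15 tested genes of a list of 18 NF-kappaB and IL-1 genes, and for 4.59% of all genes. Its epithelial sum was the highest of the KPC1 libraries. The genes most like Cxcl1 over the 36 libraries were Nfkbiz (r = 0.88), Nfkbia (0.85) and Zc3h12a (0.80), which encodes an RNase that degrades inflammatory transcripts, and these coefficients include that library.

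Some NF-kappaB and IL-1 genes were called higher also where Cxcl1 was not called. Of the 15 tested, those called higher numbered 11 for clone H (where 27.8% of all genes were higher), 11 for V (29.4%), 8 for N (19.7%), 8 for T (25%), 5 for E (16.5%), 4 for K (10.4%) and 4 for M (12.2%), and 0 were called lower. With KPC1, 13 were called higher (as were 30.5% of all genes), and 9 without replicate 1. Il6, a cytokine of inflammatory fibroblasts, was called higher in all 8 co-cultures, with log2 fold changes from 1.34 (clone M, adjusted p = 0.036) to 4.51 (KPC1, adjusted p = 3.5e-10). Ptgs2, a prostaglandin synthase, was too, from 1.05 (clone K, adjusted p = 0.033) to 3.43 (clone V, adjusted p = 7.8e-09). Lif, a relative of Il6, was called higher in 6, at 2.74 to 3.48, and not with clone K (0.52) or M (1.12). Il1rn had the largest changes of the list, at 6.26 with clone E, 6.21 with clone N and 7.51 with clone T. It was called higher with each co-culture other than clone H (1.68). Il1a, Il1b and Tnf, the upstream cytokines, had 5, 0 and 12 counts in all libraries together and were not tested. The 15 genes had a median log2 fold change of 0.99 (clone H), 0.65 (clone V), 1.21 (KPC1) and 0.14 (clone K).

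**Figure D5:**
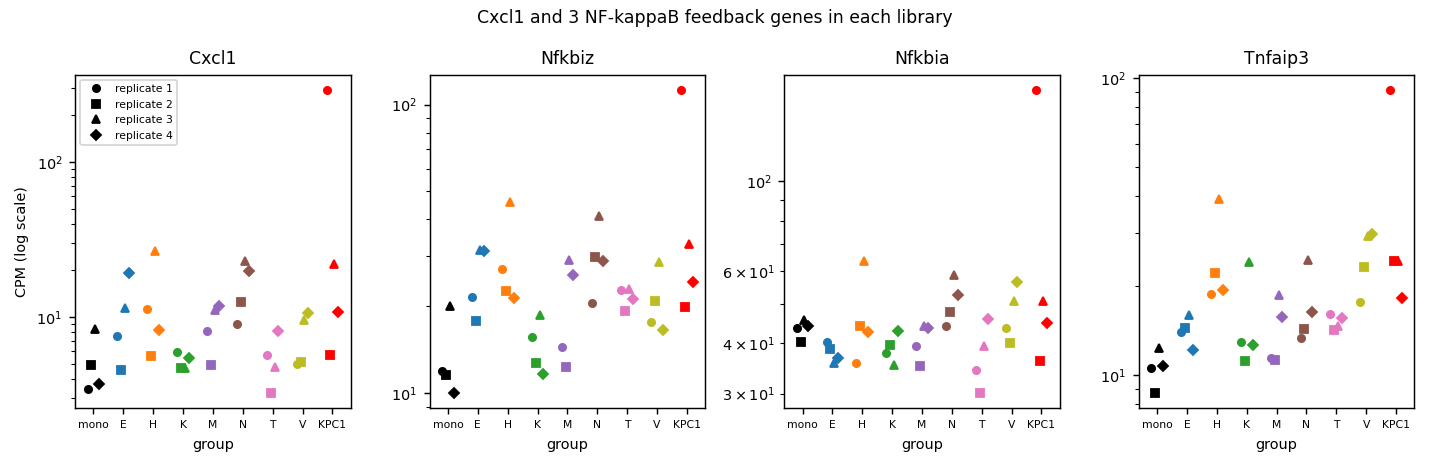
CPM (y axis, log scale) of Cxcl1, Nfkbiz, Nfkbia and Tnfaip3 in each of the 36 libraries by group (x axis), with marker shapes for replicates. KPC1 replicate 1 is the highest library for all 4 genes, at 292, 112.6, 168 and 91.3 CPM.

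Receptors for these ligands were low. Of 8 receptor genes, Ackr3, a scavenging receptor for Cxcl12, was the 1 that was tested. Cxcr2 had 6 counts, Cxcr3 2 and Cxcr6 7 over the 36 libraries. Cxcr4, the signalling receptor for Cxcl12, had 63 counts, of which 57 lay in the clone V co-culture, at 0.305, 0.241, 0.817 and 1.85 CPM. KPC1 held 4 of its counts, the mono-culture and clone N 1 each, and the other 5 groups 0. Ackr3 stood at 5.67, 5.56, 5.55 and 5.07 CPM in the mono-culture, at 13.2, 22.5, 19.3 and 20.4 CPM with clone N and at 32.7, 9.17, 16.8 and 18.6 CPM with KPC1, all above the mono-culture. It was called higher with clone N (log2 fold change 1.79, adjusted p = 0.0044), KPC1 (1.83, adjusted p = 0.002) and clone T (1.29, adjusted p = 0.028).

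Of 10 further chemokine ligands, Cxcl15 and Cx3cl1 were tested. Cxcl15, a neighbour of Cxcl5, held 1 count in the mono-culture and 7 (clone V) to 82 (clone N) counts per co-culture, always under 2 CPM. Cx3cl1, which encodes fractalkine, another membrane-bound chemokine, averaged 42.5 ± 2.26 CPM in the mono-culture, 64.8 ± 14.2 CPM with clone T and 25.6 ± 9.56 CPM with clone V (SD, n = 4). It was called higher with clones E, K, N and T (for T, log2 fold change 0.61, adjusted p = 0.017) and lower with clone V (-0.73, adjusted p = 0.0044). Cxcl9 and Cxcl11, the other Cxcr3 ligands, had 62 and 24 counts over all libraries.

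Taking the 7 clones as 1 set, with equal weight, 2 of the 5 members differed from the mono-culture, where 49.2% of all genes did. Cxcl12 was lower (log2 fold change -2.81, SE 0.23, adjusted p = 4.1e-11). Cxcl5, for which a lower call was not possible, was higher (adjusted p = 0.00015). Cxcl10, at -0.60 (SE 0.26, adjusted p = 0.058), is the mean of clones that rose and clones that fell. It passed without clone H replicate 3, clone N replicate 4 or clone T replicate 2 (adjusted p 0.027 to 0.041), and also under DESeq2 (0.049), without scaling (0.035), with at least 10 counts in every library (0.043) and under limma-trend on log2(RPKM + 0.1) (0.046). A joint test of differences among the 7 clones called 4 of 5 members, Cxcl5, Cxcl10, Cxcl12 and Cxcl16, where it called 67.5% of all genes, with adjusted p of 0.00061, 6.2e-10, 3.5e-07 and 5.9e-07.

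Set against the mean of the 7 clones, KPC1 differed in 4 of 5 members, 3 higher and 1 lower, where 41.1% of all genes differed and 22.3% were higher. Cxcl1 was higher by 3.23 on the log2 scale (adjusted p = 2.3e-06), which fell to 0.53 (adjusted p = 0.29) without KPC1 replicate 1. Cxcl5 was higher by 1.99 (adjusted p = 0.00068; 1.36 and 0.045 without that library) and Cxcl10 by 1.71 (adjusted p = 3.2e-06). Cxcl12 was lower, at -2.06 (adjusted p = 2.4e-05), and Cxcl16 was not called (0.17, SE 0.19, adjusted p = 0.52). Of the 15 NF-kappaB and IL-1 genes, 10 were higher than in the clones, and 4 without replicate 1. In both fits 1 was lower, which in the fit of all libraries was Il1rn (-2.16, adjusted p = 0.00022).

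Over all 36 pairs of the 9 groups, Cxcl10 and Cxcl12 each differed in 24, Cxcl5 and Cxcl16 each in 18 and Cxcl1 in 8, where 30.7% of pairs were called over all genes. All 8 pairs of Cxcl1 involved KPC1, and 8 of the 18 pairs of Cxcl5 were against the mono-culture with its single count. Next to each other in order of mean CPM, each of the 5 members had 1 of 8 steps called. For Cxcl1 it was KPC1 over clone N, where the KPC1 mean rests on replicate 1. For Cxcl5 it was clone V over mono-culture, where a lower call was not possible. It was KPC1 over mono-culture for Cxcl10, mono-culture over clone K for Cxcl12 and mono-culture over clone V for Cxcl16. The steps of Cxcl5, Cxcl12 and Cxcl16 were lost when some single libraries were left out. The highest group mean over the lowest was 8.98-fold for Cxcl10 and 3.94-fold for Cxcl16. The members did not share 1 order of groups: clone V was second for Cxcl10 but last for Cxcl16, and clone N was first among the clones for Cxcl1, Cxcl5 and Cxcl16 but under the mono-culture for Cxcl10. Over the 36 libraries, Pearson r between the log2 levels of 2 members ran from -0.55 (Cxcl5 and Cxcl12) to 0.63 (Cxcl5 and Cxcl16).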

How the data were processed

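RNA of sorted mouse fibroblasts was sequenced in 36 libraries of 9 groups. The authors deposited a table of gene counts and a table of RPKM values per library, and the submitters' processing notes name STAR, featureCounts, edgeR and mm10, with no versions or roles. The counts were whole reads per gene, not normalized. The deposited RPKM values equal those computed from the counts up to a per-library factor of 0.9997 to 1.0002. The members and all gene lists were chosen with earlier results of these data known. Named genes were the 7 members, the list genes and, for each tested member, the 3 genes with the highest Pearson r of log2 CPM over 36 libraries (mean of at least 2 CPM, 11695 genes).

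Counts were fitted with edgeR 4.0.16 (R 4.3.3), using filterByExpr by group, TMM scaling, and 1 quasi-likelihood model over all 36 libraries with a mean per group. Adjusted p-values are Benjamini-Hochberg over 14439 genes, called under 0.05. Log2 fold changes used edgeR's default prior count, and the CPM given used none. A prior count of 1 was used for the log2 CPM behind the correlations between genes over 36 libraries. Contrasts were each co-culture against mono-culture, the mean of 7 clones against mono-culture, KPC1 against that mean, a joint F test among clones, and all 36 pairs. The pipeline was tested on simulated data. DESeq2 1.42.0, limma 3.58.1 trend fits on log2(RPKM + 1) and log2(RPKM + 0.1), other scaling and filters, a replicate block and leaving out libraries were alternatives. The limit that a count of 0 allows was taken as 3 counts. Depth was 12532122 to 21985538 counts per library. Replicates of a group differed by more than counting noise (chi-square over degrees of freedom at least 5.53 in 54 pairs). This cannot tell separate cultures from separate preparations of the same culture. Cxcl5 and Cxcl16 had no RefSeq promoter entry here, and protein sequences were not used here. Strand use in counting is not given in the sources used here.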

Additional observations from a re-analysis of the deposited data

Results flagged for a closer look

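Each member in each group of 4 libraries made a set, and the 46 sets with more than 3 counts in a library were examined. In 3 of them, the gap of 1 library to the nearest other, over the range of CPM, exceeded Dixon's 95% critical value for 4 samples. For normally distributed values, chance gives about 2.3. Cxcl1 in KPC1 replicate 1 had a ratio of 0.943 (292 CPM, next 21.9). Cxcl2 in the same library had 0.894 (57 counts, next 6). Cxcl5 in clone H replicate 3 had 0.871 (2.68 CPM, next 0.567).

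The effect of co-culture differed among the 7 clones for 4 members, by edgeR's joint quasi-likelihood F test with Benjamini-Hochberg adjustment. The adjusted p was 0.00061 for Cxcl5, 6.2e-10 for Cxcl10, 3.5e-07 for Cxcl12 and 5.9e-07 for Cxcl16. Cxcl10 was higher than in the mono-culture with 2 clones and lower with 4, while Cxcl12 was lower with all 7 and differed in size.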

How the results depend on the processing

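Of 466 single-member values recomputed under 9 other settings, 442 kept their direction and their side of the threshold, and of 780 recomputed without 1 library, 738 did. Members called with clone K were 1 with no filter on low counts, in place of 3. Pairs called for Cxcl1 were 2 under limma-trend with either pseudocount, in place of 8. The cause was not tested. Without 1 library, the members called ranged from 1 to 2 with clone K and from 2 to 4 with clone V. Changes of sign touched small changes that were not called. Cxcl16 with clone H (log2 fold change 0.04) was -0.0409 without scaling, -0.000257 with the replicate block, -0.0481 and -0.0759 under limma-trend, and -0.136 to 0.130 without 1 library. Without 1 library, Cxcl1 with clone K was -0.106 to 0.380 and with clone T -0.134 to 0.452, and Cxcl16 in KPC1 against the clones was -0.0788 (without KPC1 replicate 1) to 0.346. Fits without KPC1 replicate 1 for the gene lists and for Cxcl2 and the block for the lists were chosen after seeing the data.

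Same-numbered libraries deviated together (r over 0.1) in 63 of 112 pairs between co-cultures but in 5 of 32 with the mono-culture. Over all pairs r ran from -0.58 to 0.69. The strict rule that every pair must deviate together was not met, and the main fit held no replicate term. Failing that rule does not show that co-cultures of the same replicate number are independent. A structure shared by the co-cultures and not by the mono-culture may remain. With the replicate number as a block, KPC1 had 5 members called in place of 4, Cxcl16 passing at an adjusted p of 0.035, and pairs called were 7 for Cxcl1, 19 for Cxcl5, 24 for Cxcl10, 26 for Cxcl12 and 19 for Cxcl16. Cxcl5 at 1 to 10 counts in clone V libraries and Cxcl2 are limited by depth.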
